A study of Homo sapiens with 4 samples.

Results

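The proteasome subunit genes were examined in HCT116 cells, a human colorectal carcinoma cell line. The set holds every protein-coding gene whose GENCODE symbol begins with PSM, a letter from A to G and a digit, which gave 50 of the 58735 gene identifiers in the expression files. By role, 14 are constitutive core subunits, 3 are immunoproteasome subunits, 2 are tissue-restricted core subunits, 9 belong to the base and 8 to the lid of the regulatory particle, 5 are activators or an inhibitor and 7 are assembly factors. The remaining 2, PSMC3IP and PSME3IP1, carry the name of a partner and are no proteasome subunits, so 48 members are proteasome genes. The cells had received small interfering RNAs (siRNA) 48 h before, either a control siRNA, in 2 libraries, or siRNA against the kinesin-family gene KIF26B, in another 2, numbered 1 and 2 in each group. All 4 libraries share the cell line, the medium and the transfection, and which KIF26B siRNA went into which library is not given in the sources used here. The values are FPKM, fragments per length of exon and per size of library, with 1 value per gene and library.

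The proteasome is the protease of the cytosol and nucleus that degrades proteins tagged with ubiquitin. Its barrel-shaped core is built of rings of alpha subunits (PSMA) around rings of beta subunits (PSMB), of which PSMB5, PSMB6 and PSMB7 carry the active sites. A base of ATPases (PSMC) with scaffold and ubiquitin-binding subunits unfolds substrates, and a lid of PSMD subunits removes the ubiquitin chain. Under interferon, cells replace the constitutive catalytic subunits by PSMB8, PSMB9 and PSMB10 to form the immunoproteasome, whose peptides are favoured for presentation on MHC class I.

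The library sizes behind the FPKM, inferred from the steps between values and not given by the authors, were between 18068934 and 24673739 fragments. Whole reads recovered from the library labelled KIF26B siRNA 2 summed to 18775721, above its inferred size of 18068934. In each other library they summed to less than the inferred size. The reason was not tested. KIF26B itself was listed at 0.110 and 0.205 FPKM in control siRNA 1 and 2 and at 0.140 and 0.0307 FPKM in the libraries labelled KIF26B siRNA 1 and 2, or 31, 73, 43 and 8 reads. The library labelled KIF26B siRNA 1 lay between the controls, and only the library labelled KIF26B siRNA 2 lay below both. Mitochondrial genes took 32.80% of the summed FPKM in the library labelled KIF26B siRNA 1 and 25.37% to 26.03% in the other 3 libraries. The 2 control libraries were close to each other, with a median absolute difference over the 44 proteasome genes tested of 0.03 on the log2(FPKM + 1) scale, against 0.28 between the libraries labelled KIF26B siRNA. The reads of the controls still differed by more than counting noise (mean chi-square per gene 2.82, where noise alone gives about 1), so they were kept as separate replicates. Of 12 colorectal epithelial markers, 8 averaged at least 1 FPKM, with KRT19 the highest at 842 to 951 FPKM. Of these 8, the keratins KRT8 (485, 482, 369 and 350 FPKM in the order control siRNA 1 and 2 and KIF26B siRNA 1 and 2) and KRT18 (245, 243, 175 and 168 FPKM) and the claudin CLDN3 (17.03, 17.75, 12.57 and 13.38 FPKM) were lower at an unadjusted P below 0.05 (limma) and none was higher. Of all genes tested, 8.68% were lower and 7.74% higher by the same rule. The part of these markers in the results below was not tested. Fibroblast markers summed to between 4.93 and 8.82 FPKM, nearly all from COL1A1, and endothelial markers to between 0.114 and 0.402 FPKM.

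Levels of the members spanned the abundant to the undetected. Of the 50 members, 46 reached the filter of a mean of at least 1 FPKM and were tested among 14523 genes. PSMA2, PSMB8, PSMA8 and PSMB11 did not. The highest member was PSMB3, a beta subunit of the core, at 129 and 127 FPKM in control siRNA 1 and 2 and 124 and 209 FPKM in the libraries labelled KIF26B siRNA 1 and 2. PSMA7, an alpha subunit, followed at 131, 141, 110 and 128 FPKM in the same order, so its range overlapped that of PSMB3 and the order of these neighbours was not separated from their spread. The catalytic subunits PSMB5, PSMB6 and PSMB7 had means of 92.4, 89.8 and 100.4 FPKM, with overlapping ranges over the libraries. PSMA8, the spermatoproteasome alpha subunit of the testis, had 0 reads in every library, which allows at most 0.0642 to 0.0877 FPKM at 3 reads. PSMB11, the thymoproteasome subunit of thymic cortical epithelium, had 1 read in control siRNA 2 and 0 in the others.

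**Figure D1:**
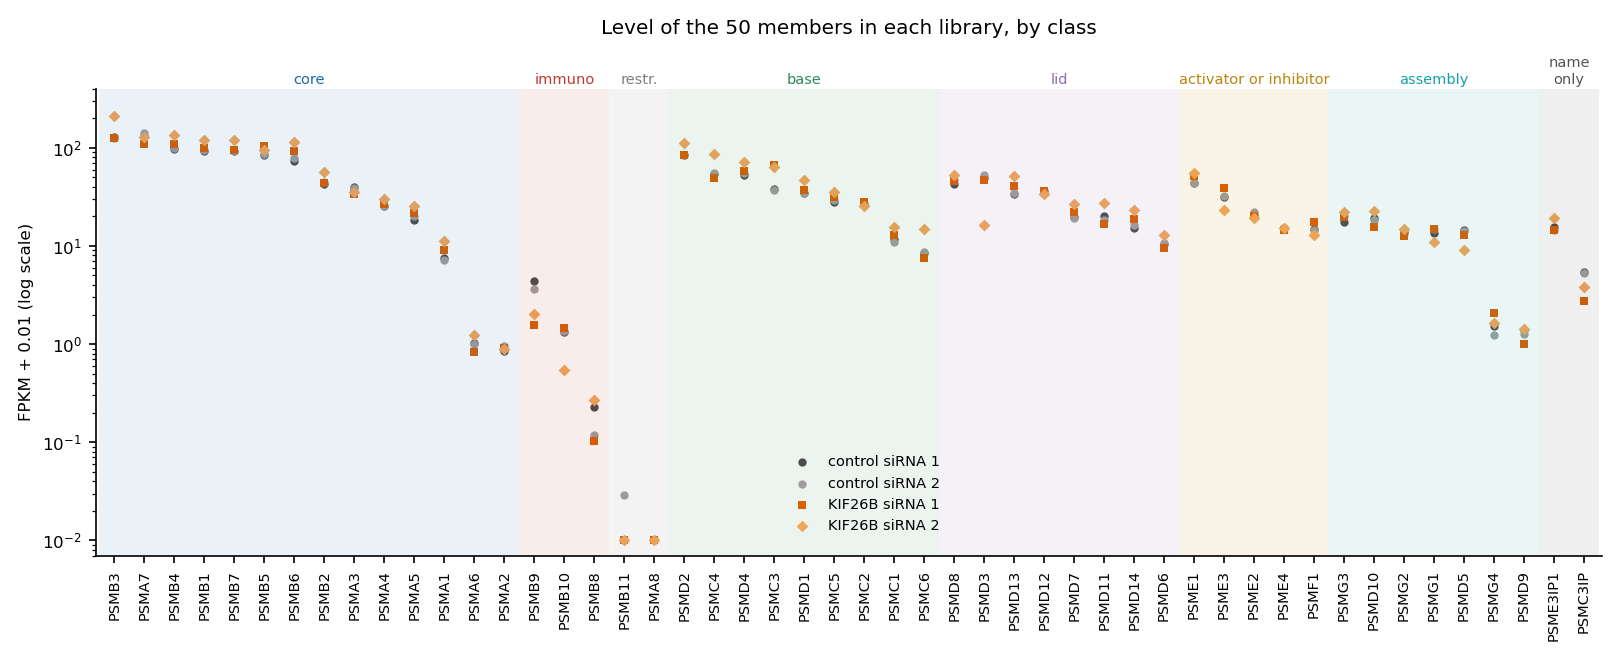
Level of the 50 members as FPKM + 0.01 on a log axis, grouped by class and ordered within a class by mean level, with 1 point per library. Most core, base, lid, activator and assembly members sit above 10 FPKM in every library, while PSMA6, PSMA2, PSMB10, PSMB8, PSMG4 and PSMD9 sit near or below 2 FPKM.

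Some core members were listed far below their class, and these share exons with another gene on the same strand. The 14 constitutive core subunits occupy the particle in equal numbers, yet PSMA2, PSMA6 and PSMA1, all alpha subunits, had mean levels of 0.887, 1.02 and 8.74 FPKM, against 21.4 to 147 FPKM for the other 11. By the GENCODE annotation of GRCh37, exons of another protein-coding gene on the same strand cover 100% of the canonical transcript of PSMA2 (chr7:42956427-42971784, minus strand), 81.4% of PSMA6 (chr14:35747839-35786699, plus strand) and 67.0% of PSMA1 (chr11:14526420-14665181, minus strand). The other members with such cover were PSMB10 at 56.1% and PSMD9 at 28.8%, with mean levels of 1.16 and 1.26 FPKM. The overlapping genes themselves were listed at 0 to 0.453 FPKM. How the authors' counting treated a read that falls in exons of 2 genes is not given in the sources used here, and its part in these levels was not tested. The levels of these 5 members are therefore uncertain, and whether shared reads affect their differences between libraries was not tested. Exons on the opposite strand cover 83.2% of the canonical transcript of PSMC1 and 51.6% of PSMD7, with mean levels of 12.8 and 21.9 FPKM. Neither was the lowest of its class. Without the strand setting the levels of PSMC1 and PSMD7 are uncertain as well.

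**Figure D2:**
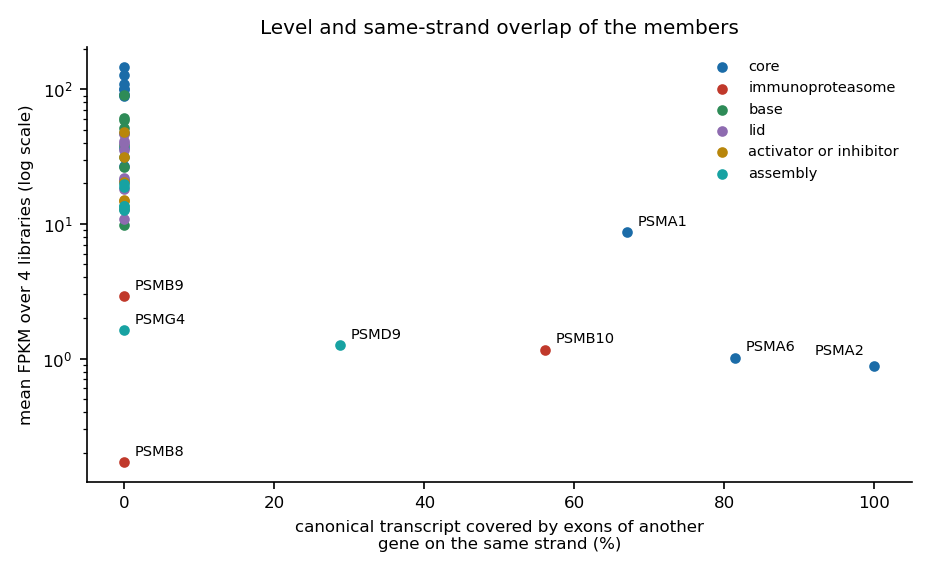
Mean FPKM over the 4 libraries on a log axis against the percentage of the canonical transcript that exons of another gene on the same strand cover, for the proteasome genes with a mean above 0.02 FPKM. PSMA1, PSMA6, PSMA2, PSMB10 and PSMD9 are the 5 members with any cover and range from 0.887 to 8.74 FPKM, below all members at 0% cover except PSMB9, PSMG4 and PSMB8.

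Exon length entered the levels as well. The deposited FPKM of PSMG4, an assembly chaperone of the core, was 1.53, 1.23, 2.07 and 1.64 in the 4 libraries and rested on an exon length of 10418 bases, against 785 bases in its canonical transcript. Per base of the canonical transcript, its reads came to a mean of 21.4 on the FPKM scale, in the range of the other core assembly factors at 19.4 to 42.5. On that scale PSMB4, PSMB1, PSMA7 and PSMB3 led the core at 260, 257, 232 and 228, so the order of the most abundant members depended on the length used. The 3 core members under a same-strand gene had 1.65 to 24.2, against 21.6 to 260 for the others. They stayed the lowest of the core but for PSMA4. Read numbers here are lower limits, so the values on this scale are lower limits too. For PSMA4 the length inferred behind its FPKM, 3498 bases, was shorter than its canonical transcript of 4378 bases. Its value of 21.6 may thus be too low, and its place in the core is uncertain. Reads on near-identical copies were a further limit. The files list 44 pseudogenes of 17 PSM genes, of which 21 were above 0, and they summed to between 6.67 and 9.13 FPKM. The pseudogene PSMA6P1 had 1.58, 1.31, 1.83 and 2.32 FPKM, above PSMA6 itself in every library.

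The question of the comparison was which genes differ after transfection with KIF26B siRNA. At an unadjusted P below 0.05 in limma, 2 members were higher and 2 were lower in the libraries labelled KIF26B siRNA. Over all genes tested, 7.74% were higher and 8.68% lower by this rule, so the members' shares were no larger than the background. None of the 46 passed an adjusted p of 0.05 (limma, Benjamini-Hochberg, over all genes tested), nor did any of the 14523 genes, the smallest adjusted p being 0.242 while 2385 genes had an unadjusted P below 0.05. No member had a log2 fold change beyond 1 together with P below 0.05, against 0.606% of all genes on the lower and 0.813% on the higher side. The labels do not say that the 2 libraries of a group came from separate cultures, so these values measure the spread between these libraries, which may be technical. In bulk RNA, fewer cells of a kind and less RNA per cell cannot be told apart.

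PSMC3, an ATPase of the base, had the most even difference. It had 37.7 and 37.4 FPKM in control siRNA 1 and 2 and 66.6 and 64.2 FPKM in the libraries labelled KIF26B siRNA 1 and 2. Both of the latter lay above both controls, so the groups did not overlap, as for 24.9% of all genes tested on this side. The log2 fold change, here and below of FPKM + 1, was 0.79 ± 0.11 (SE) with an unadjusted P of 0.00196 and an adjusted p of 0.242 (limma, Benjamini-Hochberg). The unadjusted P stayed below 0.05 in every alternative run, between 0.000660 and 0.0436. The gene lies at chr11:47440320-47448024 on the minus strand (GRCh37), no other annotated exon overlaps its canonical transcript, and 1684 to 3240 reads stood behind each value.

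PSMB6, the constitutive catalytic subunit with caspase-like activity, was the highest of the differing members. Its levels were 72.9 and 78.7 FPKM in the controls and 93.3 and 114 FPKM in the libraries labelled KIF26B siRNA 1 and 2, again without overlap. The log2 fold change was 0.44 ± 0.15 (SE) with an unadjusted P of 0.0449 and an adjusted p of 0.297 (limma, Benjamini-Hochberg). This call was lost with a pseudocount of 0.1 (unadjusted P = 0.0597, limma). It was also lost in the limma fits without a control library. In those fits the spread within a group comes only from the libraries labelled KIF26B siRNA, and most calls over all genes are lost. The other constitutive catalytic subunits also lay above both controls in both libraries, PSMB5 at 83.5, 85.4, 105 and 95.4 FPKM and PSMB7 at 92.7, 92.5, 95.7 and 121 FPKM, with unadjusted P of 0.109 and 0.253 (limma). The smallest of these differences was that of PSMB7 in the library labelled KIF26B siRNA 1, 0.05 on the log2 scale above the control mean.

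PSMB9, the immunoproteasome counterpart of PSMB6, was lower. It had 4.36 and 3.65 FPKM in control siRNA 1 and 2 and 1.57 and 2.02 FPKM in the libraries labelled KIF26B siRNA 1 and 2. Both of the latter were below both controls, and the 95% Poisson intervals of the 263, 277, 103 and 112 reads behind them, which cover counting error only, ran from 3.24 to 4.92 FPKM in the controls and from 1.28 to 2.43 FPKM in the others. The log2 fold change was -0.84 ± 0.15 (SE) with an unadjusted P of 0.00531 and an adjusted p of 0.242 (limma, Benjamini-Hochberg). Since the added 1 FPKM shrinks the change of a low gene, the same comparison gave -1.12 with a pseudocount of 0.1 and -1.16 in limma-voom on the recovered reads. The call was lost in the fit without control siRNA 1. There the spread within a group comes only from the libraries labelled KIF26B siRNA, and most calls over all genes are lost.

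The other immunoproteasome subunits overlapped between groups. PSMB8, the counterpart of PSMB5, had 0.221, 0.108, 0.0937 and 0.259 FPKM from 13, 8, 6 and 14 reads, so the highest value was in a library labelled KIF26B siRNA and the lowest in the other. Its 95% Poisson intervals ran from 0.0467 to 0.378 FPKM in the controls and from 0.0344 to 0.434 FPKM in the others. At this depth a fall like that of PSMB9 could not be judged. PSMB10, the counterpart of PSMB7, had 1.32, 1.36, 1.44 and 0.538 FPKM from 48, 62, 57 and 18 reads. Only the library labelled KIF26B siRNA 2 was low, the groups overlapped, and the unadjusted P was 0.354 (limma). The class thus had 2 members tested, both with a log2 fold change below 0 and a median of -0.56, against a median of -0.01 over all genes tested, and 1 of the 2 passed the unadjusted P.

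Each immunoproteasome subunit takes the place of 1 constitutive subunit, so each pair was compared by its FPKM ratio within a library. This is a ratio of RNA levels and depends on the exon length behind each FPKM. Assembled particles were not measured, and the level of PSMB10 is uncertain, as given above. PSMB9 over PSMB6 was 0.0598 and 0.0464 in the controls and 0.0168 and 0.0176 in the libraries labelled KIF26B siRNA 1 and 2. These ratios did not overlap between groups and differed by -1.61 on the log2 scale, with an exact two-sided permutation p of 0.3333, the smallest that 2 against 2 libraries allow. PSMB8 over PSMB5 was 0.00265, 0.00127, 0.000891 and 0.00271, and PSMB10 over PSMB7 was 0.0142, 0.0147, 0.0151 and 0.00445. Both of these ratios overlapped between groups (exact permutation p = 1 for each), and the constitutive subunit exceeded its counterpart in every library.

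**Figure D3:**
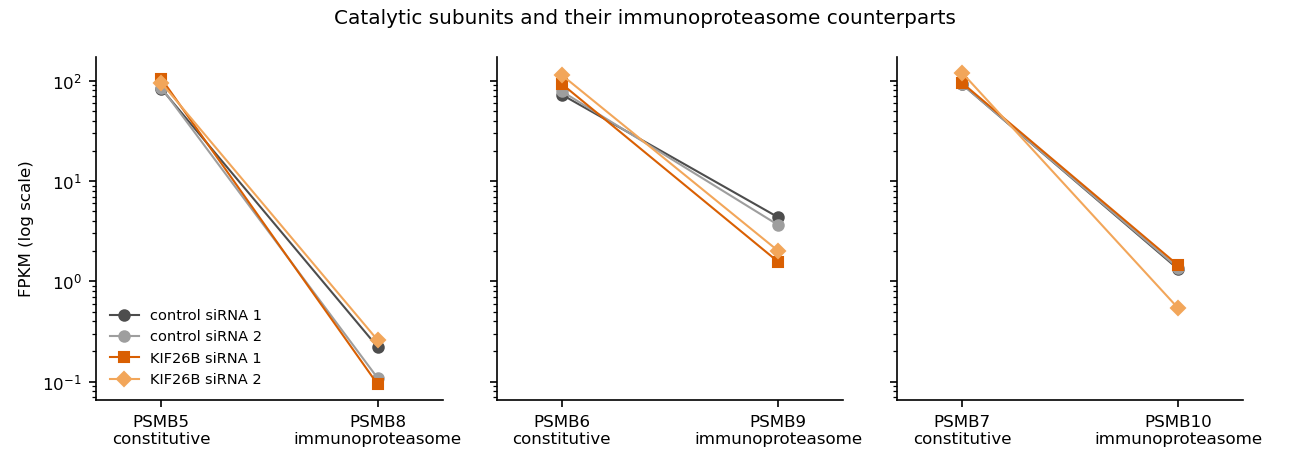
FPKM on a log axis of the constitutive catalytic subunits PSMB5, PSMB6 and PSMB7 and of their immunoproteasome counterparts PSMB8, PSMB9 and PSMB10, with 1 line per library. In the PSMB6 and PSMB9 pair the libraries labelled KIF26B siRNA are above the controls for PSMB6 and below them for PSMB9, while the lines of the other pairs cross or lie together except for PSMB10 in the library labelled KIF26B siRNA 2.

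Genes that are known to act with the immunoproteasome were read beside PSMB9. TAP1, the peptide transporter subunit encoded head to head with PSMB9, had 11.4, 9.45, 10.9 and 10.9 FPKM, and TAP2 had 5.83, 5.44, 5.70 and 5.28 FPKM. IRF1, the interferon-induced transcription factor of these genes, had 2.31 and 2.17 FPKM in the controls and 1.93 and 1.60 FPKM in the libraries labelled KIF26B siRNA, with an unadjusted P of 0.141 (limma). None of the 10 antigen processing and interferon genes tested passed an unadjusted P of 0.05, and their median log2 fold change was -0.05. A leukocyte marker did move with PSMB9, namely HLA-DRA at 4.26, 3.01, 1.68 and 1.34 FPKM. The 10 leukocyte markers summed to 4.93, 4.15, 2.43 and 2.27 FPKM, of which HLA-DRA was the largest part, CD3E was 0 in all 4 libraries and PTPRC was 0 in all but control siRNA 1, at 0.0278 FPKM.

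PSMC3IP, the fourth member called, is no proteasome gene but a cofactor of meiotic recombination. It had 5.44 and 5.34 FPKM in the controls and 2.73 and 3.85 FPKM in the libraries labelled KIF26B siRNA 1 and 2, with no overlap. The log2 fold change was -0.59 ± 0.17 (SE) with an unadjusted P of 0.0268 and an adjusted p of 0.272 (limma, Benjamini-Hochberg). The call was lost in the fits without control siRNA 1 or 2. There the spread within a group comes only from the libraries labelled KIF26B siRNA, and most calls over all genes are lost. Exons of MLX on the opposite strand cover 57.2% of its canonical transcript, and without knowledge of the strand setting the reads of both genes cannot be told apart. PSME3IP1, the other name match, had 15.5, 14.4, 14.5 and 19.2 FPKM and overlapped between groups.

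**Figure D4:**
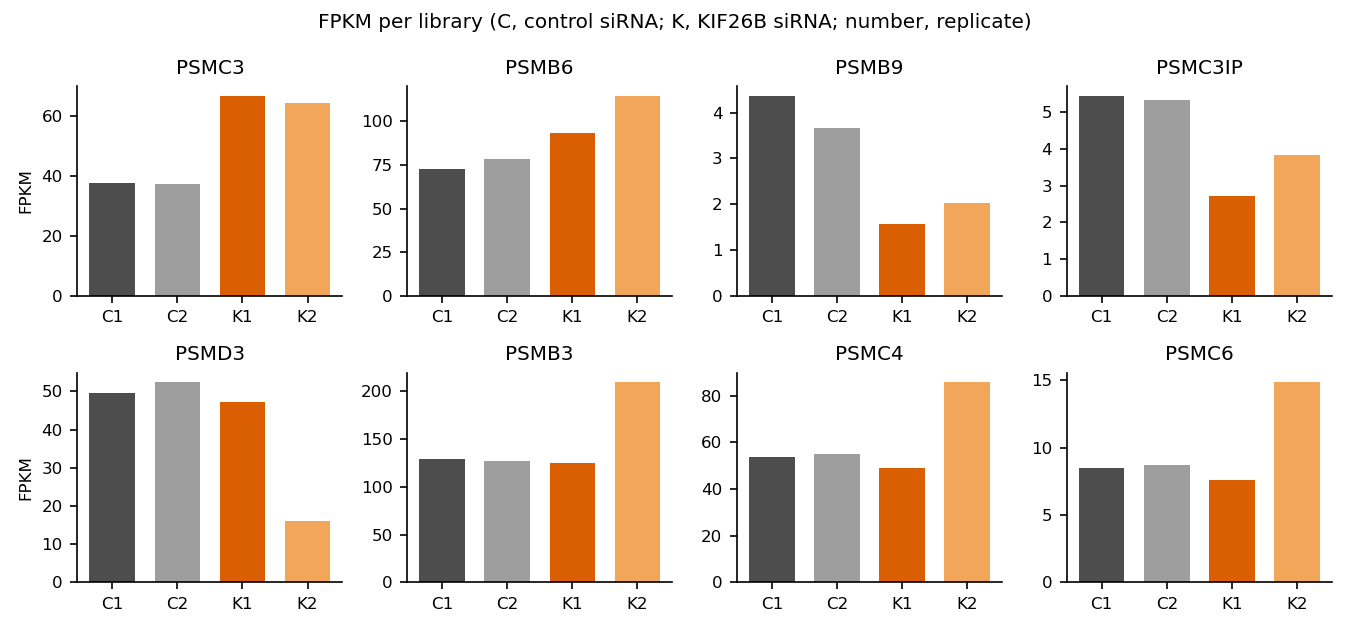
FPKM in each library of 8 members, with C1 and C2 the control siRNA libraries and K1 and K2 the libraries labelled KIF26B siRNA, on axes that start at 0. In the upper row both K libraries lie on 1 side of the controls, and in the lower row K2 departs from the other 3 libraries while K1 stays near the controls.

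For several members the library labelled KIF26B siRNA 2 stood apart on its own. PSMD3, a scaffold subunit of the lid, had 49.7 and 52.3 FPKM in the controls and 47.1 and 16.2 FPKM in the libraries labelled KIF26B siRNA 1 and 2. Only the second library lay far below the controls, although the first was also under both, and the mean log2 fold change of -0.85 ± 0.54 (SE) had an unadjusted P of 0.186 (limma). Without the library labelled KIF26B siRNA 2 the log2 fold change was -0.11, and without the library labelled KIF26B siRNA 1 it was -1.60. The gene lies at chr17:38137060-38154212 on the plus strand (GRCh37), and 1450 reads remained behind its lowest value. PSMC4, a base ATPase, had 53.7, 54.9, 49.2 and 85.6 FPKM. PSMC6, another base ATPase and the lowest member of the base, had 8.50, 8.72, 7.57 and 14.8 FPKM. In PSMB3, PSMC4 and PSMC6 the library labelled KIF26B siRNA 1 lay slightly below both controls and the library labelled KIF26B siRNA 2 well above them, and no call was made for any of the 3.

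Summed over the classes, the library labelled KIF26B siRNA 2 held more core and base RNA than the others. The 14 core members summed to 836, 856, 873 and 1084 FPKM, and the 9 base members to 338, 342, 375 and 472 FPKM. The 8 lid members summed to 227, 234, 237 and 244 FPKM, a narrower range in which the low PSMD3 of the second library offset the others. All 50 members together made up 0.528% and 0.531% of the summed FPKM in the controls and 0.506% and 0.596% in the libraries labelled KIF26B siRNA 1 and 2. The groups overlapped (exact two-sided permutation p = 1). Over nuclear genes alone, without the mitochondrial share given above, the percentages were 0.709 and 0.712 in the controls and 0.753 and 0.805 in the others, which did not overlap (difference 0.0687 percentage points, exact permutation p = 0.3333, the smallest possible).

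Of the 44 proteasome genes tested, 31 had a log2 fold change above 0, or 70.5%, against 48.4% of all genes tested. Both libraries labelled KIF26B siRNA lay above both controls for 18 of the 44 and below both for 6, where 24.9% and 27.8% of all genes tested did so. The higher values came mainly from 1 library. The library labelled KIF26B siRNA 2 was above both controls for 32 of the 44 and below both for 12, against 44% and 44.8% of all genes, with a median difference from the control mean of 0.26 on the log2 scale. The library labelled KIF26B siRNA 1 was above both controls for 23 of the 44 and below both for 16, against 41.1% and 45.8% of all genes, with a median difference of 0.06. Without the library labelled KIF26B siRNA 1, 24 members were called higher and 7 lower at an unadjusted P below 0.05, and without the library labelled KIF26B siRNA 2, 8 were higher and 4 lower. In those fits the lone library is assumed to vary like the controls, and 22.9% of all genes were called higher and 23.7% lower in the former and 17.5% and 22.4% in the latter.

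**Figure D5:**
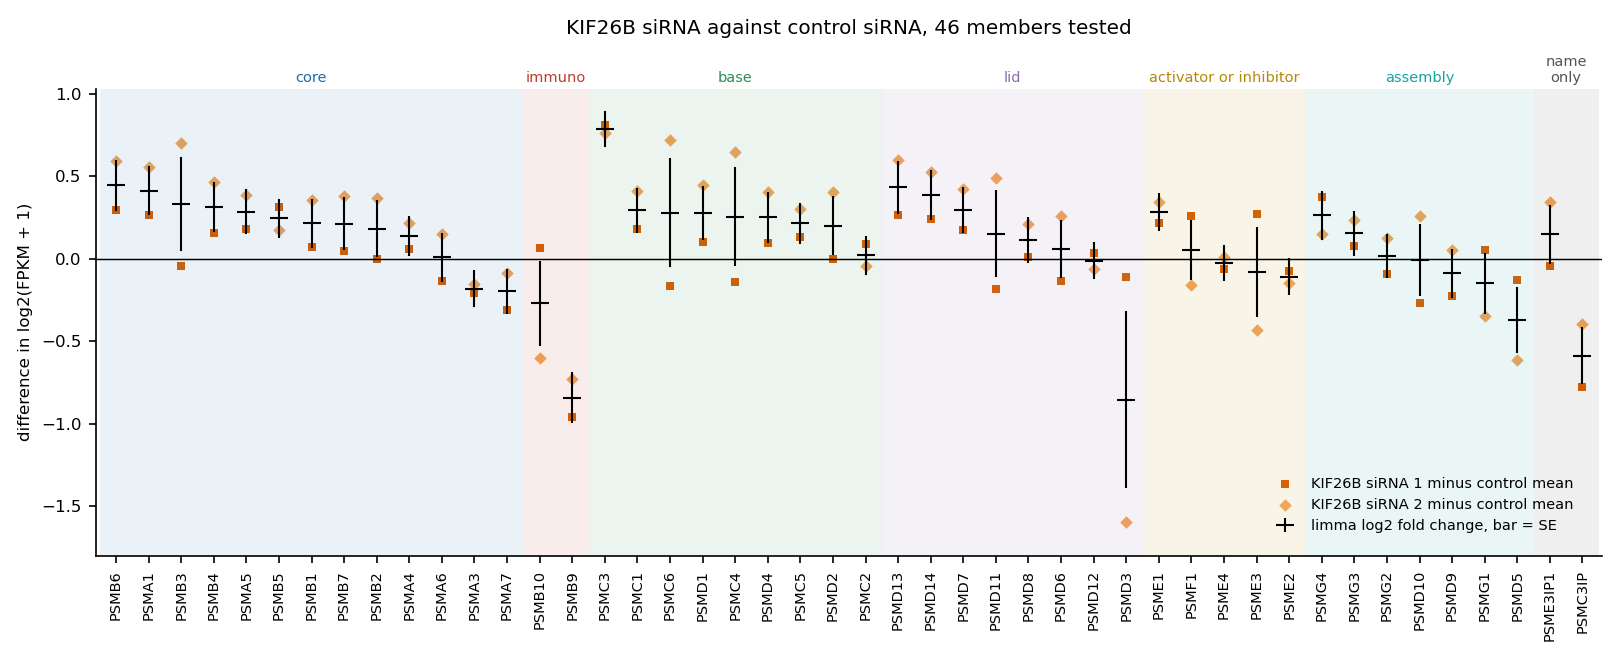
Difference in log2(FPKM + 1) from control siRNA for the 46 members tested, by class and ordered by the limma log2 fold change (black tick, bar = SE), with the difference of each library labelled KIF26B siRNA from the control mean (square, 1 and diamond, 2). All 9 base members have a fold change above 0, PSMC3 is the highest with both libraries together, and PSMD3 has its libraries far apart.

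In the core, 11 of the 13 members tested had a log2 fold change above 0, with a median of 0.21, and PSMB6 was the largest. PSMA1, the alpha subunit with an uncertain level, had 7.55, 7.13, 9.03 and 11.3 FPKM, a log2 fold change of 0.41 and an unadjusted P of 0.0521 (limma). PSMA7 and PSMA3 were the core members below 0. PSMA7 had 131, 141, 110 and 128 FPKM and PSMA3 had 39.7, 38.9, 33.9 and 35.2 FPKM, each without overlap between groups and with log2 fold changes of -0.20 and -0.18, neither called. All 7 beta subunits had a log2 fold change above 0, between 0.18 and 0.44. PSMA2 could not be tested and had 0.840, 0.942, 0.895 and 0.871 FPKM, with both libraries labelled KIF26B siRNA between the controls.

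In the base, all 9 members had a log2 fold change above 0, with a median of 0.25, against 48.4% of all genes tested above 0. For 5 of the 9, both libraries labelled KIF26B siRNA lay above both controls, as for 24.9% of all genes tested. Taken singly, the library labelled KIF26B siRNA 1 lay above both controls for 6 of the 9 and the library labelled KIF26B siRNA 2 for 8. The shares of all genes tested were 41.1% and 44%. PSMC3 was the member called. PSMD2, the large scaffold that binds ubiquitin receptors, was the highest of the base at 84.3, 84.7, 84.3 and 112 FPKM. Its library labelled KIF26B siRNA 1 lay between the controls. PSMC2, an ATPase, had the smallest difference, 0.02 on the log2 scale, at 26.6, 26.1, 28.0 and 25.5 FPKM. PSMC1 had 11.8, 11.0, 13.0 and 15.4 FPKM, and exons of NRDE2 on the opposite strand cover 83.2% of its canonical transcript, so its reads could not be assigned without the strand setting.

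In the lid, 6 of 8 members had a log2 fold change above 0, with a median of 0.13, and none was called. PSMD13 had the largest, with 33.7 and 34.3 FPKM in the controls and 41.1 and 52.0 FPKM in the libraries labelled KIF26B siRNA 1 and 2. These did not overlap, the log2 fold change was 0.43 ± 0.16 (SE) and the unadjusted P was 0.0535 (limma). PSMD14, the metalloprotease that cuts the ubiquitin chain from the substrate, had 15.0 and 16.4 FPKM in the controls and 18.7 and 23.0 FPKM in the others, with a log2 fold change of 0.38 and an unadjusted P of 0.0655 (limma). PSMD8 had the highest mean of the lid over all 4 libraries, at 42.8, 47.3, 45.4 and 52.3 FPKM, although PSMD3 was above it in every library but KIF26B siRNA 2. PSMD6 was the lowest at 10.4, 10.6, 9.48 and 12.8 FPKM. PSMD8 and PSMD6 overlapped between groups.

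The activators cap and open the core in place of the regulatory particle. PSME1 and PSME2 form the interferon-inducible PA28 ring. PSME1 had 43.9 and 43.5 FPKM in the controls and 51.0 and 55.8 FPKM in the libraries labelled KIF26B siRNA, with a log2 fold change of 0.28 and an unadjusted P of 0.0725 (limma). PSME2 had 20.8 and 21.9 FPKM in the controls and 20.2 and 19.2 FPKM in the others, with a log2 fold change of -0.11. These partners thus lay on opposite sides of the controls, neither was called, and whether they differ from each other was not tested. PSME3, the nuclear PA28 gamma, had 31.6, 31.9, 38.6 and 23.2 FPKM, above both controls in the library labelled KIF26B siRNA 1 and below both in the second. PSME4, the PA200 activator, had 15.2, 15.2, 14.5 and 15.4 FPKM. PSMF1, the inhibitor PI31, had 14.8, 14.4, 17.6 and 12.9 FPKM and again lay on opposite sides of the controls in the libraries labelled KIF26B siRNA. The median log2 fold change of these 5 was -0.03.

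Of the 7 assembly factors, 3 had a log2 fold change above 0 and none was called, with a median of -0.01. PSMD5, a chaperone of the base, had the lowest fold change, with 14.4 and 14.3 FPKM in the controls and 13.0 and 9.03 FPKM in the libraries labelled KIF26B siRNA 1 and 2. Its log2 fold change was -0.37 ± 0.20 (SE) and its unadjusted P was 0.139 (limma). PSMG3 had the highest mean at 17.6, 19.9, 19.8 and 22.2 FPKM, an order not separated from PSMD10, a base chaperone, at 19.4, 18.2, 15.4 and 22.7 FPKM. PSMD9 had the lowest at 1.38, 1.27, 0.982 and 1.41 FPKM. PSMG4 had the largest value above 0, a log2 fold change of 0.26 with an unadjusted P of 0.149 (limma).

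Genes that act with the proteasome under other symbols were read from a list of 49, of which 48 were tested, 3 were higher and 1 was lower at an unadjusted P below 0.05, shares below the 7.74% and 8.68% of all genes tested, and none passed an adjusted p of 0.05. Their median log2 fold change was 0.00. NFE2L1, the membrane-bound transcription factor that raises proteasome gene expression when proteasome activity is short, had 31.0 and 32.5 FPKM in the controls and 42.1 and 46.0 FPKM in the libraries labelled KIF26B siRNA (log2 fold change 0.46, unadjusted P = 0.0180, limma). NFE2L2, its relative in the oxidative stress response, had 15.6 and 14.4 FPKM in the controls and 10.0 and 11.9 FPKM in the others (log2 fold change -0.42, unadjusted P = 0.0384, limma). Both genes thus had groups that did not overlap, in opposite directions. Without the first and the second control library the log2 fold changes were 0.42 and 0.49 for NFE2L1 and -0.37 and -0.48 for NFE2L2. Both calls were lost in those fits. Their spread within a group comes only from the libraries labelled KIF26B siRNA, and most calls over all genes are lost there, so this loss is not particular to these genes.

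UBB, a polyubiquitin gene, had 283, 287, 266 and 269 FPKM, with an unadjusted P of 0.444 (limma). The ubiquitin-activating enzyme UBA1 had 82.9, 85.3, 74.4 and 75.4 FPKM, with an unadjusted P of 0.205 (limma). Of the proteasome parts without a PSM symbol, the ubiquitin receptor ADRM1 had 55.5, 54.7, 58.8 and 57.9 FPKM, the small lid subunit SEM1 had 5.65, 5.99, 5.90 and 7.77 FPKM and the core maturation factor POMP had 90.8, 93.7, 88.0 and 103 FPKM. None of these 3 was called.

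Since proteasome genes are known targets of NFE2L1, the promoters were read for the core of its binding element. RefSeq promoter windows of 300 bases, from 250 bases before to 50 bases after the annotated start (GRCh38.p14), were at hand for 44 of the 50 members, in 55 windows. PSMA7, PSMB1, PSMB6, PSMB7, PSMD4 and PSMG3 had no window. The letters TGACNNNGC, or GCNNNGTCA on the other strand, occurred in 15 of the 55 windows, or 27.3%, against 13.3% of all 35116 windows. The 15 members with a match that were tested had a median log2 fold change of -0.01, with 7 of 15 above 0, and the 25 members tested with a window and no match had a median of 0.18, with 20 of 25 above 0. The latter include PSMC3IP and PSME3IP1, which are no proteasome genes. Whether a match bears on the fold changes was not tested. PSMB3 and PSMC4 were among the members with a match, as were PSMB9 and PSMD3. A match describes the letters in a window and is no evidence of binding. The windows of the member with the highest fold change, the called immunoproteasome member and PSMD3, whose libraries were farthest apart, are shown 5′ to 3′ along the gene's strand, with matches in capitals.
PSMC3 (chr11:47426390-47426689, minus strand, no match): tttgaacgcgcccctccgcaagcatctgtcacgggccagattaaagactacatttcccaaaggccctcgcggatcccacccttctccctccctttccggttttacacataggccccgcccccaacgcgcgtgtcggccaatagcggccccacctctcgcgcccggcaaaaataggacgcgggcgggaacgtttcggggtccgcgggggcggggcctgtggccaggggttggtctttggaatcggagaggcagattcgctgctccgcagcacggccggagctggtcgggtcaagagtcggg
PSMB9 (chr6:32853942-32854241, plus strand, 1 match): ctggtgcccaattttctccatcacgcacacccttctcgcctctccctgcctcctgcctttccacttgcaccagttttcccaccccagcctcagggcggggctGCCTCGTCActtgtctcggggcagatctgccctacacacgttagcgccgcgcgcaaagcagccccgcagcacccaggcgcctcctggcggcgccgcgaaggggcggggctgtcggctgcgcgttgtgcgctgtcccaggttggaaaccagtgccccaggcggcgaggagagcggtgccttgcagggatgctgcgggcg
PSMD3 (chr17:39980557-39980856, plus strand, 2 matches): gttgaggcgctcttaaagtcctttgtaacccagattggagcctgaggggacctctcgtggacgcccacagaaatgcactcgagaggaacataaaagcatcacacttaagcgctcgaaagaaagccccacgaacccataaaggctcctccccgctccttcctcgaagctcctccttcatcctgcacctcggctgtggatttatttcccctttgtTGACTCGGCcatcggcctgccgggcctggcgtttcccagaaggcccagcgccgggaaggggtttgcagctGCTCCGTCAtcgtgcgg
The match of PSMB9 starts 148 bases before the annotated start on the opposite strand. Those of PSMD3 start 37 bases before and 33 bases after it, on the gene's strand and on the opposite strand.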

How the data were processed

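Per the labels and the study's methods, total RNA of HCT116 cells was poly(A)-selected and sequenced as paired-end reads. The authors aligned the reads with HISAT2 2.0.5 and, per the submitters' processing notes, counted them with featureCounts 1.5.0-p3. The methods name hg19 and the notes hg38 as genome build. The annotation, the strand setting and the treatment of reads shared by overlapping genes are not given in the sources used here. The authors deposited 1 FPKM value per gene and library, a unit read from the values, in 4 files. Whole reads were recovered from the FPKM steps as the smallest whole numbers in all 4 libraries within 0.001 reads, so a read number is a lower limit. All 34638 genes above 0 gave whole reads. With the values moved at random, 0 of 2000 did, against 1987 as deposited.

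Symbols, coordinates and overlaps came from GENCODE v44 lifted to GRCh37, where 56513 of 58735 identifiers had a symbol. limma 3.58.1 (R 4.3.3) was fitted to log2(FPKM + 1) of 14523 genes averaging 1 FPKM or more, with all 4 libraries, no covariate and Benjamini-Hochberg adjustment. The unadjusted P of 0.05 and the log2 fold change of 1 are the thresholds of the study's methods. Since a pseudocount is added, fold changes of low genes are understated. Ratios and shares were compared by exact two-sided permutation tests, whose smallest p is 0.3333. The members and lists were chosen with earlier results of these data known. Named were all immunoproteasome, activator and inhibitor members, the extremes of each class in level and fold change, every member at P below 0.05 and fixed partner genes, of which some are not reported here. PSMB3, PSMC4 and PSMC6 for the second library, PSMA3 and other members were named after their values were seen. Alternatives were a replicate block, a pseudocount of 0.1, other filters, median-of-ratios scaling, a variance trend, limma-voom on recovered reads and leaving out each library. Levels per canonical transcript length were added after seeing the data. The fit was tested on simulated data. Python 3.11.15, numpy 2.4.6, pandas 2.3.3, scipy 1.17.1 and matplotlib 3.10.9 were used.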

Additional observations from a re-analysis of the deposited data

How the results depend on the processing

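With 2 libraries a group, depth limits PSMB8, PSMB10 and the tissue-restricted members, and each fit that leaves out a library assumes that the lone one varies like the others. Members called higher numbered 2 in the fit as reported, 1 with a replicate block, 1 with a pseudocount of 0.1, 5 with no filter, 4 with at least 1 FPKM in every library, 4 after median-of-ratios scaling, 5 with a variance trend and 5 in limma-voom, and from 1 to 24 when a library was left out. Members called lower numbered 2 in each of these settings except without a library, against 5.93% (replicate block) to 10.1% (limma-voom) of all genes. Past a log2 fold change of 1 on the lower side there was 1 member with a pseudocount of 0.1 and 1 in limma-voom, against 0 as reported. Of the 14523 genes, 203, 204 and 88 passed there, in the same order. Adjusted calls numbered 0 to 4 lower and 0 to 8 higher without a library, all of them without the library labelled KIF26B siRNA 1, where 8.59% of all genes were called lower and 8.68% higher. Partner genes called lower, 1 as reported, numbered 0 with the replicate block, 2 with no filter, 2 in limma-voom and 0 to 7 without a library. Those called higher, 3 as reported, numbered 5 with a variance trend, 6 in limma-voom and 0 to 16 without a library. The median log2 fold change of the immunoproteasome was -0.83 with a pseudocount of 0.1, -0.27 with no filter, -0.84 with at least 1 FPKM in every library, where only PSMB9 was left, and -0.86 in limma-voom. Without a library, class medians ran from 0.0605 to 0.37 for the core, 0.10 to 0.41 for the base, 0.0245 to 0.34 for the lid, -0.15 to 0.22 for activators and the inhibitor and -0.0936 to 0.12 for assembly factors. The proteasome share differed by 0.0687 percentage points over nuclear genes, against 0.0212 over all genes. The fold change of PSME3 ran from -0.43 to 0.27, the latter without the library labelled KIF26B siRNA 2 (unadjusted P = 0.0263, limma). With the replicate block, the call of PSMB6 was lost (unadjusted P = 0.0595, limma) and no other member call. Libraries share only a number, since same-numbered libraries did not deviate together (r = -0.003 across 14523 genes, which are not independent).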
